A study of Mustela putorius furo with 8 samples.

Results

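The 7 genes ECRG4, NRN1, CKB, RHOV, TSPAN15, ENPP3 and TCIM, of 27912 genes counted, were followed through single-cell RNA libraries of ferret pancreatic ductal epithelia (PDE). They were chosen by their measured levels, for large differences between wild-type (WT) clusters of cells with SOX2 below 10 CPM and WT clusters with SOX2 above it, so their difference between those clusters is a description of the choice and not a finding. CPM is the gene's share of all unique molecular identifiers (UMIs) of a set of cells, scaled to a total of 1e6. All 7 symbols were found in the count matrices, and RefSeq lists all 7 as protein-coding genes of the ferret assembly ASM1176430v1.1, with spans from 1333 bases (TCIM) to 76395 bases (ENPP3) and no chromosome assigned. The libraries came from epithelia of newborn ferrets that were WT or carried CFTR KO/KO, the loss of both copies of the chloride and bicarbonate channel of cystic fibrosis (CF). Ducts of both genotypes had been passaged 10 times in airway epithelial media and then polarized on inserts, and the libraries labelled WT and CF had been taken at day 2, 5, 7 and 9 at an air-liquid interface (ALI). There were 8 libraries, 1 for each genotype and day. The study pooled cells of several donors in each genotype, with a wide average difference in PDX1 between the WT and the CF donors. No file assigns a cell to a donor. No value has a replicate error, no test was run, and a donor cannot be told apart from a genotype or from a set of clusters.

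SOX2 is a transcription factor of the foregut that is kept in stratified and airway epithelium and is lost as the pancreas forms, whereas simple ducts carry keratins of simple epithelium and pump bicarbonate into the duct lumen. The 7 genes act at different places in an epithelial cell. ECRG4 encodes augurin, a small secreted or membrane-tethered precursor. NRN1 encodes neuritin, a lipid-anchored surface protein known from growing neurites, and TSPAN15 encodes a tetraspanin that binds the protease ADAM10 and steers it to its substrates. CKB is the cytosolic brain-type creatine kinase, which passes phosphate between ATP and creatine, and RHOV is an atypical small GTPase related to CDC42. ENPP3 is an ecto-enzyme that splits extracellular nucleotides, and TCIM is a small protein described as a regulator of WNT and beta-catenin signaling.

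The retained cells numbered 1607 to 6224 per library, with 34735952 to 114585136 UMIs in a library and a median of 14949 to 23427 UMIs per cell. Pairs of libraries shared 0.4% of the cell barcodes of the smaller library at most. CFTR transcript was still counted in CF, at 2.50, 8.69, 11.1 and 11.4 CPM at day 2, 5, 7 and 9 against 6.57, 16.9, 15.9 and 29.5 CPM in WT. The study's methods describe the knockout animals as free of CFTR transcript, and the reads in the libraries labelled CF go against that. Where in the gene these reads lie is not in the count tables, so whether they come from the disrupted allele was not tested, and CF here means the libraries labelled so. PDX1, a pancreatic transcription factor, stood at 3.37 to 5.04 CPM in CF and at 0 to 0.012 CPM in WT. Markers of simple duct epithelium, 12 genes, summed to 8173 CPM or more in every set of cells at every day. The 10 endocrine, 6 endothelial and 6 nerve and Schwann cell markers each summed to under 0.63 CPM, 6 immune markers to at most 8.25 CPM, the 5 of 13 acinar markers that were in the matrices to 18.4 to 127 CPM, of which 4 were under 1 CPM throughout and CLPS made up 18.3 to 127 CPM, and 9 mesenchymal markers to 24.2 to 292 CPM in CF, 28.5 to 121 CPM in SOX2-low WT and 14.0 to 64.3 CPM in SOX2-high WT. The part of these other cell types in the results was not tested. None of 11 sex-linked genes that might have marked a donor was in the matrices.

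SOX2 split the 41 WT clusters widely. The 12 SOX2-low clusters, with 5479 cells, lay between 0.806 and 4.87 CPM of SOX2, the 29 SOX2-high clusters, with 16121 cells, lay between 50.6 and 205 CPM, and no cluster fell between 4.87 and 50.6 CPM. All 30 CF clusters, with 11345 cells, were at or below 1.08 CPM. Of the SOX2-low clusters, 9 carried the deposited class name ductal, 2 centroacinar and 1 proliferating ductal, and the class names were taken as given. The SOX2-low cells made up 14.3, 33.8, 27.5 and 27.9% of the WT cells at day 2, 5, 7 and 9, and held 12.8, 45.8, 34.5 and 30.5% of the WT UMIs. Those cells held 89.9 to 98.8% of all WT UMIs of ECRG4, NRN1, CKB, RHOV and TSPAN15 at each day, and 0.512 to 1.80% of those of ENPP3 and TCIM.

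As the choice fixes, 5 genes were at least 2-fold higher and 2 at least 2-fold lower in SOX2-low than in SOX2-high WT at all 4 days, where 1.77% of 8119 tested genes were higher and 2.88% lower. Tested genes had a mean of at least 10 CPM over the days on either side, and folds were taken as differences of log2(CPM + 1). By the mean difference, NRN1, ECRG4, CKB and RHOV held places 1 to 4 from the top of these genes, and TSPAN15 place 6. ENPP3 and TCIM held places 4 and 5 from the bottom, and SOX2 itself place 3. This order restates the choice of the genes. The rule did not use the CF cells. It drew on WT levels per cluster and library, so the spread among WT clusters and their course over days are description too.

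**Figure D1:**
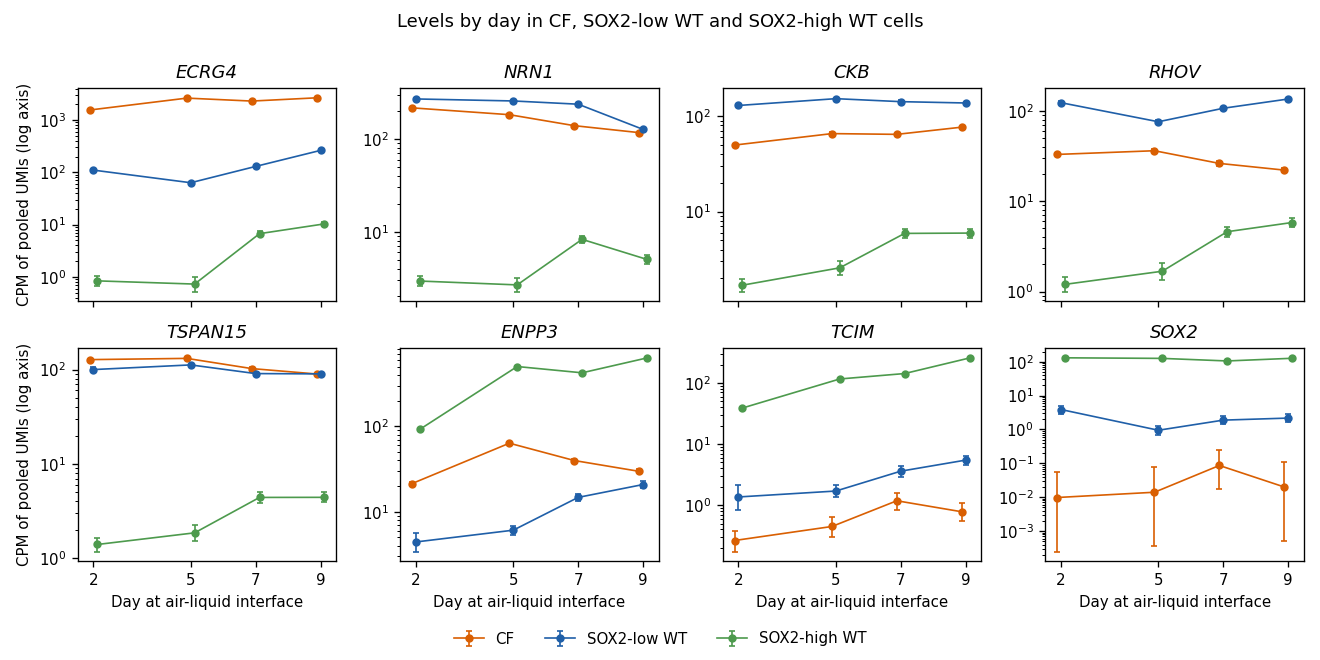
Level of each gene and of SOX2, as CPM of pooled UMIs on a log axis, by day at ALI in CF cells (orange), SOX2-low WT cells (blue) and SOX2-high WT cells (green), 1 library per genotype and day. Bars are exact Poisson 95% intervals for counting error only; CF lies above both WT sets for ECRG4, between them for CKB, RHOV and ENPP3, near SOX2-low WT for NRN1 and TSPAN15, and below both for TCIM and SOX2.

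Over all cells ECRG4 was at least 10.1 times as high in CF as in either WT set, and by less in the centroacinar class. In CF it stood at 1551, 2622, 2302 and 2656 CPM at day 2, 5, 7 and 9. In SOX2-low WT it stood at 110, 63.2, 130 and 262.5 CPM, and in SOX2-high WT at 0.841, 0.73, 6.72 and 10.3 CPM. The 3 sets did not overlap, and the lowest CF library lay above the highest SOX2-low value. CF was 14.1 (95% interval 13.4 to 14.8), 41.5 (40.0 to 43.0), 17.8 (17.2 to 18.4) and 10.1 (9.87 to 10.4) times SOX2-low WT at the 4 days, with intervals that cover counting error only, as all intervals here do. Cells with at least 3000 UMIs were thinned to 3000 and the others left out of the thinned shares. This left out 39, 45, 411 and 224 CF cells and 1, 3, 5 and 52 SOX2-low cells at day 2, 5, 7 and 9. After thinning, 95, 89.3, 68.7 and 58.1% of CF cells had an ECRG4 UMI, against 8.64, 4.45, 9.13 and 14.4% of SOX2-low cells and 0.118 to 1.49% of SOX2-high cells. Without thinning, and with every retained cell in, these shares were 99.4, 97.9, 86.7 and 76.0% in CF and 7.55 to 19.5% in SOX2-low WT. The share of CF cells with ECRG4 was thus lower at each later day, while the pooled CF level was higher at day 9 than at day 2.

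The classes of CF cells went different ways. In CF ductal cells ECRG4 was 1597 CPM at day 2 and 5151 CPM at day 9, and in CF centroacinar progenitors 1344 and 8414 CPM. In CF centroacinar cells it was 1493, 1615, 768.5 and 1629 CPM at the 4 days. SOX2-low WT centroacinar cells, of which there were 31, 83 and 203 at day 5, 7 and 9, had 924, 596 and 484 CPM, so in that class the sets were far closer than over all cells. SOX2-low WT ductal cells had 97.8, 45.8, 94.0 and 229 CPM. CF centroacinar cells were 1131 of 4499 cells at day 2 and 1957 of 2489 at day 9. The lowest ECRG4 levels of CF were in 2 of their clusters, since cluster 11 had 36.6 CPM and cluster 3 had 69.7 CPM, whereas progenitor cluster 18 had 7187 CPM. SOX2-low WT clusters spread as widely, from 0.985 CPM in ductal cluster 0, the largest of them, 1.67 CPM in cluster 34 and 2.91 CPM in cluster 8, to 605 CPM in centroacinar cluster 30 and 667 CPM in ductal cluster 17. The 3 lowest of the 12 SOX2-low clusters were thus inside the ECRG4 range of 0 to 4.33 CPM of the SOX2-high clusters without 5 that carry SOX2 and 4 of the other genes together.

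Over all cells NRN1 and TSPAN15 were at like levels in CF and SOX2-low WT. NRN1 stood at 216.5, 183, 139 and 117 CPM in CF and at 270, 257, 237 and 127 CPM in SOX2-low WT at day 2, 5, 7 and 9. It stood at 2.93, 2.67, 8.26 and 5.02 CPM in SOX2-high WT. NRN1 was thus a little lower in CF than in SOX2-low WT at every day, with ratios of 0.802, 0.711, 0.587 and 0.923, all under 2-fold. TSPAN15 stood at 127, 131, 102 and 89.7 CPM in CF and at 99.9, 112, 90.6 and 89.9 CPM in SOX2-low WT, with 1.40, 1.86, 4.42 and 4.43 CPM in SOX2-high WT. Its ratios of CF to SOX2-low WT were 1.28 (1.21 to 1.35), 1.17 (1.13 to 1.21), 1.13 (1.07 to 1.19) and 0.997 (0.948 to 1.05), so that at day 9 no difference was detectable beyond counting error. Under another scaling of the libraries (TMM) the TSPAN15 difference at day 7 changed sign, from 0.17 to -0.024 on the log2 scale.

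In the ductal class NRN1 was lower at day 9 than at day 2 in SOX2-low WT and at a like level in CF. Over all cells NRN1 at day 9 was 0.47 (0.448 to 0.492) times its day 2 level in SOX2-low WT and 0.541 (0.525 to 0.556) times in CF. Inside the ductal class of SOX2-low WT it was 273 CPM at day 2 and 121 CPM at day 9. Inside the CF ductal class NRN1 was 218, 207.5, 214 and 208 CPM at the 4 days. In CF centroacinar cells, whose share was higher at day 9, it was 135, 142, 83.3 and 90.2 CPM, and in CF progenitors 333, 261, 243.5 and 228 CPM. SOX2-low WT centroacinar cells had more NRN1 than CF centroacinar cells, at 263, 238 and 163 CPM at day 5, 7 and 9. At day 9 ductal CF cells had more NRN1 than ductal SOX2-low WT cells, by 0.78 on the log2(CPM + 1) scale, the reverse of the order over all cells, which was -0.11. TSPAN15 was higher in CF ductal cells at every day, at 133, 169, 173 and 163 CPM against 99.8, 111, 89.2 and 84.2 CPM in SOX2-low WT ductal cells. In the centroacinar class TSPAN15 was the other way round, at 104, 56.6 and 66.6 CPM in CF and 153, 123 and 128 CPM in SOX2-low WT at day 5, 7 and 9.

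CKB and RHOV were lower in CF than in SOX2-low WT by more than NRN1 was. CKB stood at 49.8, 65.7, 64.5 and 76.7 CPM in CF, at 129.5, 153, 142 and 137.5 CPM in SOX2-low WT and at 1.69, 2.57, 5.91 and 5.95 CPM in SOX2-high WT. CF held 0.385 (0.365 to 0.406), 0.43 (0.415 to 0.447), 0.454 (0.431 to 0.478) and 0.558 (0.533 to 0.584) times the CKB level of SOX2-low WT. Every CF library lay below every SOX2-low value and above every SOX2-high value. RHOV stood at 33.0, 36.3, 26.3 and 22.1 CPM in CF, at 123.5, 76.0, 107 and 136 CPM in SOX2-low WT and at 1.20, 1.68, 4.60 and 5.82 CPM in SOX2-high WT. The RHOV ratio of CF to SOX2-low WT was 0.267 (0.252 to 0.283), 0.478 (0.454 to 0.503), 0.245 (0.227 to 0.264) and 0.163 (0.152 to 0.175). In this gene too the sets did not overlap, and the day 5 libraries were the closest. In CF, RHOV was highest in centroacinar progenitors, at 65.5 to 69.1 CPM at the 4 days, against 26.1 to 48.5 CPM in ductal and 10.3 to 17.8 CPM in centroacinar cells. CKB did not follow that order, with 47.2 to 79.3 CPM in CF progenitors and 56.6 to 80.5 CPM in CF centroacinar cells. In SOX2-low WT ductal cells RHOV was 76.7 to 131.5 CPM, above each of the CF classes.

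**Figure D2:**
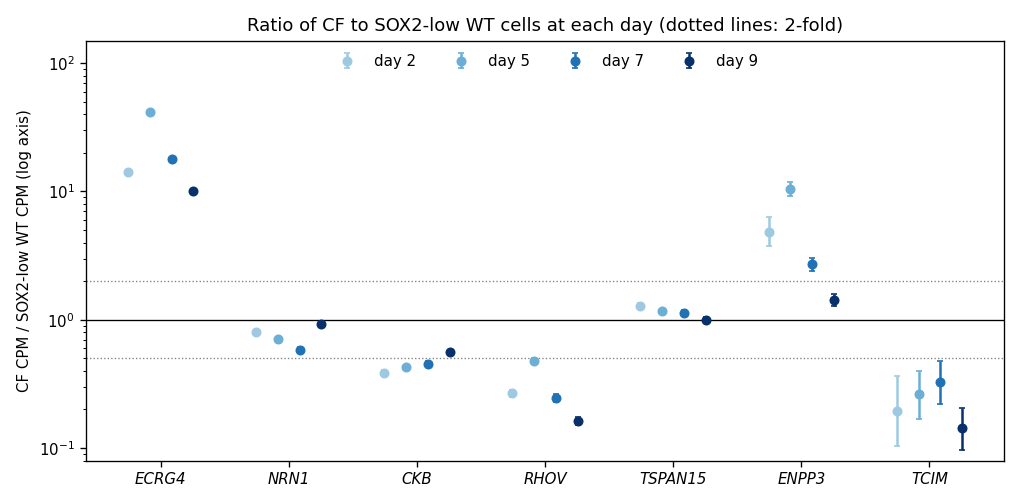
Ratio of CF CPM to SOX2-low WT CPM for each gene at day 2, 5, 7 and 9 on a log axis, with exact conditional binomial 95% intervals for counting error and dotted lines at 2-fold. ECRG4 is at 10.1 or more at all 4 days, ENPP3 is above 1, RHOV, CKB and TCIM are below 1, and NRN1 and TSPAN15 lie within 2-fold.

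The order of the sets in ENPP3 depended on the class of the cells. ENPP3 stood at 92.1, 500.4, 422 and 631 CPM in SOX2-high WT at day 2, 5, 7 and 9. In SOX2-low WT it stood at 4.43, 6.08, 14.7 and 20.8 CPM, and in CF at 21.4, 63.4, 39.7 and 29.7 CPM. Over all cells the order at each day was SOX2-high WT, then CF, then SOX2-low WT. The CF level was 4.83 (3.77 to 6.27), 10.4 (9.24 to 11.8), 2.70 (2.42 to 3.02) and 1.43 (1.29 to 1.58) times that of SOX2-low WT, and the gap was narrowest at day 9. The high WT level lay in centroacinar progenitors, at 446, 1016, 767 and 743 CPM, and in centroacinar cells, at 234, 470, 352 and 794 CPM, of the SOX2-high set. In SOX2-high ductal cells ENPP3 was 30, 9.28, 14.9 and 15.6 CPM. SOX2-low ductal cells had 4.34, 5.91, 14.5 and 19.6 CPM. Within the ductal class the 2 WT sets were thus within 0.039 of each other on the log2(CPM + 1) scale at day 7, and at day 9 the SOX2-low cells were the higher. Of the 29 SOX2-high clusters, 14 were at or below 39.0 CPM, the highest SOX2-low cluster.

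CF cells, which had next to no SOX2, carried ENPP3 in some clusters. It reached 248 CPM in ductal cluster 29, a cluster of 47 cells, 217 CPM in progenitor cluster 17 and 143 CPM in progenitor cluster 25, with 0 to 0.111 CPM of SOX2 in these clusters, while 1 CF cluster, cluster 20, had no ENPP3 UMI. By class, CF progenitors had 52.1, 168, 118 and 70.7 CPM of ENPP3 at the 4 days and CF ductal cells had 20.9, 20.2, 71 and 72.2 CPM. CF centroacinar cells had 0.703, 39.2, 5.66 and 18.4 CPM, above the 20.8 CPM of SOX2-low WT centroacinar cells at day 5. At day 7 and 9 they were below the 18.8 and 29.1 CPM of the SOX2-low WT centroacinar cells. In this CF class cluster 15 had 137 CPM and cluster 7 had 50.9 CPM, and no other cluster exceeded 13.4 CPM. CF ductal cells were above both WT ductal sets at day 5, 7 and 9. Compared with all WT ductal cells, CF ductal ENPP3 was higher by 1.39, 2.20 and 1.93 on the log2 scale at those days, the reverse of the comparison over all classes, in which CF was lower by 2.09, 2.79 and 3.86.

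TCIM was found at 10 CPM or more in SOX2-high WT and in no other set. TCIM stood at 38.9, 116, 143 and 257 CPM in SOX2-high WT at day 2, 5, 7 and 9. It stood at 1.36, 1.70, 3.60 and 5.46 CPM in SOX2-low WT, and at 0.264, 0.448, 1.18 and 0.78 CPM in CF. No CF cluster exceeded 3.08 CPM. The CF to SOX2-low ratios of 0.194 (0.105 to 0.364), 0.263 (0.169 to 0.401), 0.328 (0.223 to 0.475) and 0.143 (0.0975 to 0.205) rest on few UMIs, and TCIM did not reach 10 CPM on either side of that comparison. TCIM was like ENPP3 in its classes, with 84.0 to 344 CPM in SOX2-high progenitors and 10.0 to 33.0 CPM in SOX2-high ductal cells. Unlike ENPP3 it kept its order in the ductal class, where SOX2-low cells had 1.45, 1.83, 3.62 and 5.26 CPM and CF cells 0.167, 0.186, 2.57 and 0.789 CPM.

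**Figure D3:**
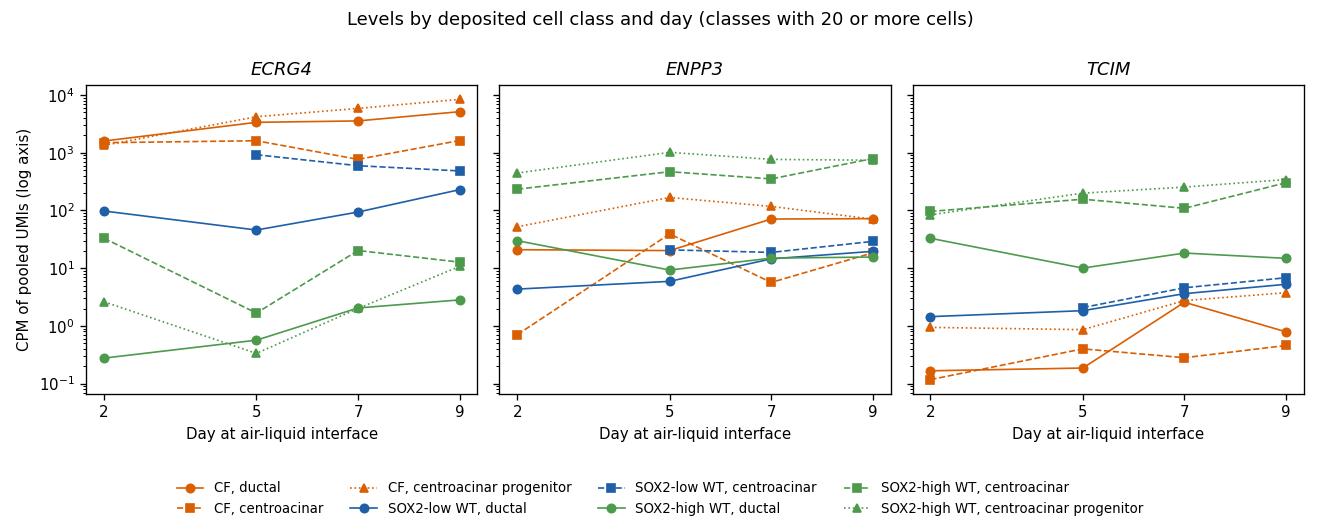
ECRG4, ENPP3 and TCIM as CPM on a log axis by day, in the deposited ductal (circles), centroacinar (squares) and centroacinar progenitor (triangles) classes of CF (orange), SOX2-low WT (blue) and SOX2-high WT (green), for classes with 20 or more cells at a day. The ENPP3 lines of the 2 WT ductal sets meet at day 7, near 15 CPM, while the SOX2-high progenitors stay at 446 CPM or more.

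Counted over the 4 days, CF and SOX2-low WT differed at least 2-fold in 2 of the 7 genes. TCIM was under the 10 CPM limit and not tested, and its ratios of 0.143 to 0.328 became less than 2-fold at day 2 and 5 on log2(CPM + 1). The choice also used SOX2-low levels, by which RHOV and CKB were picked as high and ENPP3 as low. For these genes nothing is read from the counts or places given here. ECRG4 was also picked as high in SOX2-low WT, and CF was higher still. ECRG4 was higher in CF at all 4 days, as were 1.04% of 7986 tested genes, and RHOV was lower at all 4 days, as were 0.476%. CKB was at least 2-fold lower and ENPP3 at least 2-fold higher at 3 of the 4 days, day 9 being the exception in both, and without day 9 the counts were 2 higher and 2 lower, where 1.54 and 0.665% of 7972 tested genes were. With a pseudocount of 5 CPM in place of 1 RHOV dropped out, since its day 5 difference of -1.05 became -0.97. Among ductal cells alone ECRG4 and ENPP3 were at least 2-fold higher in CF at all 4 days, CKB was at least 2-fold lower at all 4 days, by 1.28 to 1.58 on the log2 scale, and RHOV was lower by 0.65 at day 5. In that class 1.14% of 7896 tested genes were higher and 0.849% lower at all 4 days. By the mean difference ECRG4 held place 10 from the top and ENPP3 place 89, and RHOV place 30 and CKB place 101 from the bottom of the 7986 genes.

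Over whole libraries the genotypes compare CF with a mixture of both WT sets, and the SOX2-low share of WT cells moved with the day. ECRG4 and TSPAN15 were at least 2-fold higher in CF than in WT at all 4 days, as were 1.15% of 8060 tested genes, and ENPP3 and TCIM at least 2-fold lower, as were 1.41%. Since the genes were chosen by WT levels, nothing is read from these counts. NRN1 was 5.82, 1.53, 1.60 and 2.78 times WT, and CKB 2.75, 0.92, 1.22 and 1.67 times WT. Both were closest to WT at day 5, when SOX2-low cells were 33.8% of WT cells. RHOV went from 1.96 times WT at day 2 through 1.01 and 0.657 to 0.488 times WT at day 9. On the log2(CPM + 1) scale the RHOV difference at day 9 only just reached 2-fold, and it was -0.87 when every cell was weighted alike. Against SOX2-high WT alone, CF was at least 2-fold higher in 5 and at least 2-fold lower in 2 of the genes at all 4 days, where 2.21 and 1.92% of 8109 tested genes were, and since the genes were chosen by their SOX2-high levels nothing is read from this count. These comparisons share the CF libraries, and the first and last also share WT cells.

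The levels per cluster describe the split by which the genes were chosen. Of the 29 SOX2-high clusters, 5 reached the SOX2-low range in NRN1, 1 in CKB, 3 in RHOV, 4 in TSPAN15 and 18 in ECRG4. From the other side, 14 of 29 lay at or below the highest SOX2-low cluster in ENPP3 and 7 in TCIM. With every cluster in, the sets were fully apart in 0 of the 7 genes, as they were for 0.129% of 7732 genes higher and 0.504% lower in SOX2-low clusters. These counts turn on centroacinar cluster 38, which has 60 cells, a median depth under 1 part in 3 of its library's, 5 UMIs of NRN1, 14 of CKB, 6 of TSPAN15 and 4 of TCIM. Without it CKB and TSPAN15 were fully apart, as were 0.22% of 7719 genes higher and 0.713% lower, and 2 SOX2-high clusters reached the SOX2-low range in NRN1 and 2 in TCIM, with no change in ECRG4, RHOV and ENPP3. NRN1 ran from 24.3 to 327 CPM over SOX2-low clusters, CKB from 68.2 to 184 CPM, RHOV from 46.2 to 205 CPM and TSPAN15 from 29.2 to 154 CPM. The SOX2-high clusters that reached these ranges all belong to 5 clusters that had been singled out by these same 4 genes, so the gap without them follows from leaving them out. The other 24 ran from 0.396 to 3.36 CPM of NRN1, from 0.324 to 4.33 CPM of CKB, from 0.282 to 2.40 CPM of RHOV and from 0.634 to 3.36 CPM of TSPAN15. The 4.87 CPM of SOX2 in cluster 38, the SOX2-low cluster nearest to the limit, is a single UMI (95% interval 0.123 to 27.1 CPM).

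**Figure D4:**
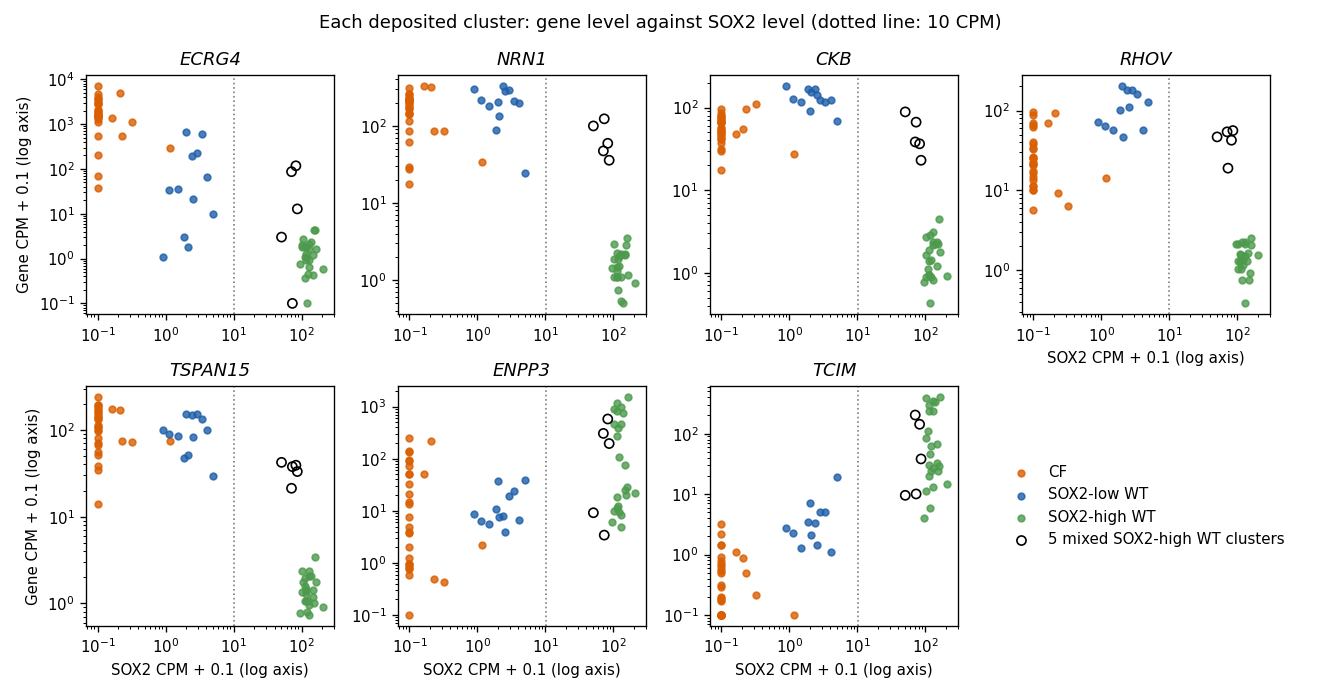
Each of the 71 deposited clusters by its SOX2 level and the level of each gene, as CPM plus 0.1 on log axes, in CF (orange), SOX2-low WT (blue) and SOX2-high WT (green), with 5 mixed SOX2-high clusters as open circles and a dotted line at 10 CPM of SOX2. In NRN1, CKB, RHOV and TSPAN15 the open circles lie above all other green points, and some of them reach the range of the blue points, while in ENPP3 the green points start as low as the blue ones and reach 1508 CPM.

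Of the SOX2-high WT clusters 5, numbered 29, 35, 36, 39 and 40, carried both SOX2 and the 4 genes NRN1, CKB, RHOV and TSPAN15. They were singled out after their values were seen, by at least 100 CPM of NRN1, CKB, RHOV and TSPAN15 together, with 147 to 276.5 CPM, whereas the other 24 had 13.5 CPM at most. They hold 554 cells. Their SOX2 levels of 50.6 to 86.4 CPM were the lowest of the SOX2-high set, in which the others began at 95.3 CPM. Among their cells, 198 had at least 5 UMIs of the 4 genes together, and 69.2% (62.3 to 75.5%, Clopper-Pearson) of those also had a SOX2 UMI. Among SOX2-low WT cells with as many UMIs of the 4 genes, 2.50% of 4720 had a SOX2 UMI, and among the other SOX2-high cells with at most 1 such UMI, 75.1% of 15409 had one. In the same 5 clusters 230 cells had at most 1 UMI of the 4 genes, of which 49.6% had a SOX2 UMI, and in cluster 29, the largest, 41.5% of the cells had at most 1 such UMI and 28.4% had 5 or more, so not every cell of these clusters carried the 4 genes. Since SOX2 and the 4 genes chose the clusters, these shares are a description. Of the 198 cells 137 held both kinds of transcript in the same barcode. Over all 198 the levels were intermediate, with SOX2 at 59.0 CPM against 126 CPM in the other SOX2-high cells, and NRN1 at 109 CPM against 239 CPM in the SOX2-low cells with 5 or more UMIs. The median depth of the 198 cells was 27119 UMIs. It was 15252 in the other SOX2-high cells with at most 1 UMI of the 4 genes and 18822 in the SOX2-low cells with 5 or more. The authors had removed doublets with DoubletFinder, no caller was run again, and the part of pairs of cells sharing a droplet was not tested. Cluster 35 is a different case, with a median of 1898 UMIs per cell and 1 cell with 5 or more UMIs of the 4 genes. Leaving the 5 clusters out changed no count of the 7 genes at least 2-fold apart at all 4 days, and moved RHOV at day 9 in CF against WT to -0.99 on the log2 scale, just under 2-fold.

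**Figure D5:**
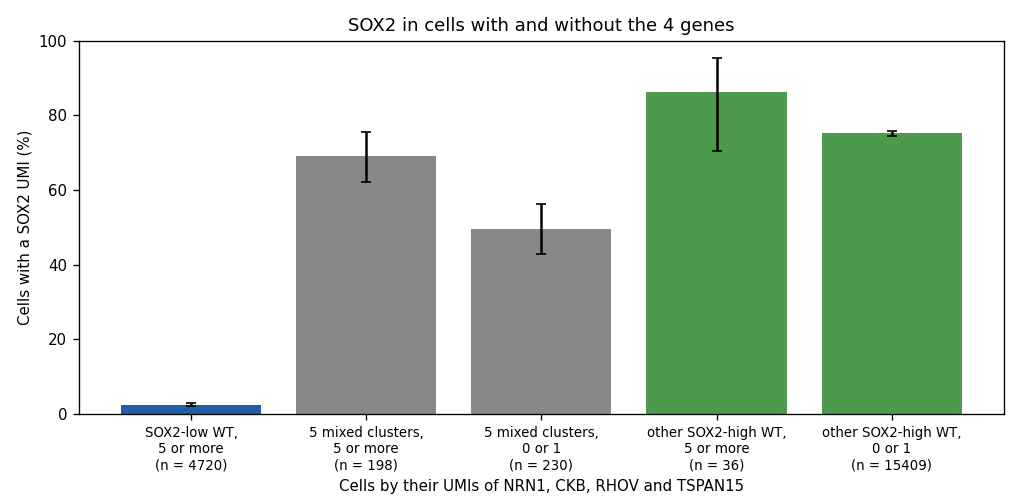
Percent of cells with a SOX2 UMI, with Clopper-Pearson 95% intervals, among WT cells with 5 or more or with 0 or 1 UMIs of NRN1, CKB, RHOV and TSPAN15 together, at full depth. Cells of the 5 mixed clusters with the 4 genes are at 69.2%, other SOX2-high cells at 75.1% and SOX2-low cells at 2.50%, and the SOX2 level and the 4 genes also chose these clusters.

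The small amounts of each gene on its low side were compared with one another, since free RNA in a droplet gives UMIs in cells that do not express a gene. SOX2 in SOX2-low cells was 2.97, 0.754, 1.79 and 1.71% of its level in SOX2-high cells at day 2, 5, 7 and 9. TCIM in SOX2-low cells was 1.47 to 3.50% and ENPP3 1.22 to 4.81% of the SOX2-high level. In the other direction, SOX2-high cells without the mixed clusters had 0.44 to 0.923% of the SOX2-low level of NRN1, 0.805 to 1.93% of CKB, 0.721 to 1.56% of RHOV, 0.932 to 1.95% of TSPAN15 and 0.652 to 1.89% of ECRG4. The mixed clusters were singled out by 4 of these genes, so leaving them out makes these shares small. With every SOX2-high cluster in, the shares were 1.04 to 3.96% for NRN1, 1.31 to 4.33% for CKB and 0.973 to 4.29% for RHOV. They were 1.40 to 4.92% for TSPAN15 and 0.763 to 5.18% for ECRG4, near those of ENPP3 and TCIM. The rule keeps SOX2 low in SOX2-low cells, so its share there is no independent yardstick. ENPP3 and TCIM were above the SOX2 share at every day, and ENPP3 ran from 3.90 to 39.0 CPM over SOX2-low clusters. Whether these low-side levels are expression was not tested, and the ratios of CF to SOX2-low WT for ENPP3 and TCIM are ratios to such levels. The rise of ENPP3 and TCIM in SOX2-low WT, to 4.70 (3.63 to 6.18) and 4.01 (2.50 to 6.77) times the day 2 level at day 9, went with rises of 6.85 and 6.60 times in SOX2-high WT of the same libraries. The part of free RNA in it was not tested.

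Over the days the level in SOX2-low WT and in CF did not always move alike. CKB at day 9 was 1.06 (1.00 to 1.12) times, RHOV 1.1 (1.04 to 1.16) times and TSPAN15 0.90 (0.843 to 0.962) times its day 2 level there. In CF the same ratios were 1.54 (1.48 to 1.61) for CKB, 0.67 (0.626 to 0.718) for RHOV and 0.704 (0.681 to 0.729) for TSPAN15. Inside the CF classes the order differed, and centroacinar cells, with lower RHOV and TSPAN15 than ductal cells and progenitors, were 1131 of 4499 CF cells at day 2 and 1957 of 2489 at day 9. TSPAN15 was 133 and 163 CPM in CF ductal cells at day 2 and 9, 175 and 193 CPM in progenitors and 69.1 and 66.6 CPM in centroacinar cells. RHOV was 31.1 and 26.1 CPM in CF ductal cells, 69.1 and 66.7 CPM in progenitors and 13.3 and 16.7 CPM in centroacinar cells. CKB was 49.5 and 51.6 CPM in CF ductal cells, 47.2 and 79.3 CPM in progenitors and 56.6 and 80.5 CPM in centroacinar cells. Over all CF cells CKB was thus above its day 2 level, but in CF ductal cells it was at a like level. RHOV over all cells was on opposite sides of its day 2 level in the 2 sets. ECRG4 at day 9 was 2.38 times its day 2 level in SOX2-low WT and 1.71 times in CF, with its lowest SOX2-low value at day 5.

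Levels over clusters were also used to name the genes with the pattern most like each one. The measure was Pearson's r of log2(CPM + 1) over 68 clusters of at least 50 cells, 39 WT and 29 CF, among 11200 genes, and since cells of a cluster share libraries and the clusters fall into separate sets, r is a description. NRN1 and TSPAN15 were each other's first match (r = 0.98), and within CF clusters alone they still ran together (r = 0.86). The r over all clusters is set by the choice of both genes. By Spearman's correlation NRN1 was not among the first 3 matches of TSPAN15. NR5A2, a nuclear receptor of the exocrine pancreas, was among the 3 first matches of NRN1 (0.96), TSPAN15 (0.98) and RHOV (0.91), with 0.56, 0.73 and 0.77 within CF clusters. The values over all clusters hold the WT split by which these 3 genes were chosen. NR5A2 was not among the first 3 matches of NRN1 by Spearman's correlation. The NR5A2 level was 49.7 to 56.0 CPM in SOX2-low WT, 41.6 to 55.3 CPM in CF and 0.475 to 2.44 CPM in SOX2-high WT. The others were GUCA2A, the gut peptide guanylin, for NRN1, an unnamed locus for TSPAN15, and the transcription factor SOX7 and an unnamed locus for RHOV. CKB ran with PAX6, a transcription factor of endocrine and eye development, with r = 0.95 over all clusters, which hold both sides of SOX2, 0.97 over WT clusters and -0.33 over CF clusters, which hold 1 side. CKB ran with NRN1 at r = 0.98 over WT clusters, 0.60 over the 12 SOX2-low clusters and 0.16 over CF clusters, and with RHOV at 0.97, -0.30 and -0.11, and the first of each is set by the choice of the genes.

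ENPP3 and TCIM had different company. ENPP3 ran with MUC13, a membrane mucin (r = 0.97), with WDR72 (0.94) and with PROM1, the apical membrane protein prominin 1 (0.93), and within CF clusters alone r was 0.96, 0.91 and 0.91. TCIM ran with LIMCH1 (0.96), CLIC5 (0.96) and an unnamed locus (0.95), with r of 0.13, 0.58 and -0.35 within CF clusters, all with next to no counts in CF: LIMCH1 was at 0.028 to 0.115 CPM and CLIC5 at 0.056 to 0.12 CPM there, against 9.29 to 47.8 and 19.3 to 48.6 CPM in SOX2-high WT. MUC13, by contrast, was at 4.72, 9.68, 12 and 15.8 CPM in CF and at 0.953, 1.70, 3.42 and 5.00 CPM in SOX2-low WT, the same order as ENPP3. WDR72 had that order too. PROM1 did not, at 1.74, 9.49, 8.32 and 7.76 CPM in CF and 3.13, 3.60, 12.5 and 17.1 CPM in SOX2-low WT, with CF the lower at day 2, 7 and 9. ECRG4 ran with PPT1 (0.93, but 0.32 within CF clusters) and 2 unnamed loci, and PPT1 was at 9.80 to 19.4 CPM in CF, at 0.819 to 2.91 CPM in SOX2-low WT and at 0.129 CPM or less in SOX2-high WT.

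The relatives and partners of 6 of the genes were listed beside them. Among 9 genes of creatine kinases and creatine supply, of which 3 passed the low-value limit, CKB alone was at least 2-fold apart at all 4 days between SOX2-low and SOX2-high WT, as were 4.66% of all tested genes in either direction. The same held for TSPAN15 among 6 tested TspanC8 tetraspanins and partners, for ENPP3 among 5 tested ectonucleotidases and adenosine genes, and for TCIM among 4 tested genes of its WNT list. CKB, TSPAN15, ENPP3 and TCIM were chosen on this contrast, so that they were apart restates the choice. The list medians below include them. None of 11 other tetraspanins differed so. Of the proposed receptors of augurin none reached a mean of 10 CPM over the days, and of the neuritins NRN1 alone did. Median differences of these lists other than the neuritins and augurin lay between -0.76 and 0.39 on the log2 scale, beside 0.0044 over all tested genes.

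Of the transcription factors of lineage, some were high on each side. Of 25 listed, 15 were tested between the WT sets, and PAX6, GATA3 and FOXA2 were at least 2-fold higher and SOX2, PAX9, NKX2-1 and KLF4 at least 2-fold lower in SOX2-low WT at all 4 days, where 1.77 and 2.88% of all tested genes were. SOX2 is among them because it defined the sets. The lists were chosen with earlier results of these data known, so nothing is read from such counts. FOXA2, a factor of endoderm and pancreas, stood at 21.9 to 37.7 CPM in SOX2-low WT, 13.4 to 26.1 CPM in CF and 3.15 to 4.43 CPM in SOX2-high WT. NKX2-1, known as a factor of lung and thyroid, stood at 33.7, 21.1, 23.8 and 17.6 CPM in SOX2-high WT and at 1.09 CPM or less in SOX2-low WT and CF. PAX9, a factor of foregut and pharyngeal epithelium, stood at 17.1 to 18.7 CPM in SOX2-high WT against at most 1.29 CPM in the other sets. Among 8 tested keratins and junction genes of stratified epithelium, KRT4, DSG3 and DSC3 were at least 2-fold lower in SOX2-low than in SOX2-high WT. The rest of that list went both ways, with mean log2 differences of 0.73 in ITGA6, 0.35 in PKP1, 0.18 in KRT5, -0.029 in ITGB4 and -1.07 in KRT15. Of the lineage list, TP63 (1.79) and SOX15 (1.45) were higher by the mean in SOX2-low WT and SOX21 (-1.65) lower, without 2-fold at every day. KRT4, a keratin of stratified mucosa, was at 48.4 to 97.8 CPM in SOX2-high and 2.17 to 5.10 CPM in SOX2-low WT. Of 11 tested simple duct markers none was 2-fold apart in 1 direction at all 4 days, although single days differed, as in SPP1 with 14.7 CPM in SOX2-low and 249 CPM in SOX2-high WT at day 5. KRT19 was at 5063 to 6667 CPM in SOX2-low and 3206 to 4885 CPM in SOX2-high WT, and KRT7 at 3005 to 3772 and 871 to 2317 CPM. Their mean log2 differences were 0.59 and 1.01, beside 0.044 in KRT8 and -0.28 in KRT18.

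Against SOX2-low WT, TBX3 alone of 13 tested lineage factors was at least 2-fold apart at all 4 days, as were 1.52% of all tested genes in either direction, at 5.6, 9.56, 13.1 and 12.3 CPM in CF and 0.681, 1.70, 2.13 and 4.26 CPM in SOX2-low WT. PDX1, also listed, was under the 10 CPM limit and not tested, at 3.37 to 5.04 CPM in CF and 0 to 0.035 CPM in SOX2-low WT. Of 7 tested keratins and junction genes DSC3 alone was at least 2-fold higher in CF and none lower. DSC3, the desmosomal cadherin desmocollin 3, was at 55.5 to 91.4 CPM in CF, at 1.84 to 2.56 CPM in SOX2-low WT and at 24.9 to 34.8 CPM in SOX2-high WT. In DSC3 and ECRG4 alike, each CF library was above both WT sets.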

How the data were processed

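Single-cell RNA was measured in 8 libraries. Per the labels and the study's methods, the authors aligned reads with Cell Ranger 5.0.1 to the ferret assembly ASM1176430v1.1 and deposited whole UMI counts per gene and barcode. In Seurat (R 4.1.2) the authors filtered cells on genes detected and on mitochondrial UMIs (20% at most), removed doublets, clustered each genotype separately and deposited a cell table with UMI counts, percent of mitochondrial UMIs, cluster and class. The deposited normalized table and lineage scores were not used. Raw counts were summed per library, set, class or cluster and scaled to CPM. With 1 library a group no test was run; calls are at least 2-fold on log2(CPM + 1) in 1 direction at all 4 days, among genes of at least 10 CPM. Intervals are 95% (exact Poisson, conditional binomial, Clopper-Pearson) and cover counting error only. For shares of thinned cells alone, a count of 0 was also given a separate limit of 3 cells. Shares of cells by set and day were taken after thinning to 3000 UMIs, without cells of fewer UMIs, and with unthinned values for ECRG4. Those of cells with a SOX2 UMI are at full depth. Alternatives used edgeR 4.0.16 (TMM) and DESeq2 size factors, a pseudocount of 5 CPM, equal weight per cell, single classes, every deposited barcode and other SOX2 limits. The named genes are the 7, SOX2, the 3 of most like pattern for each and, of fixed lists, those at least 2-fold apart. The genes, lists and limits were chosen with earlier results of these data known. Scripts were tested on simulated data. The list of RHOV's relatives is not reported here.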

Additional observations from a re-analysis of the deposited data

Results flagged for a closer look

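The change from day 2 to day 9 went opposite ways in CF and WT, over all cells, in 3 genes, with counting intervals that did not include 1. RHOV at day 9 was 0.67 times its day 2 level in CF, against 1.1 times in SOX2-low WT and 2.69 times in all WT cells. NRN1 was 0.541 times in CF against 1.13 times in all WT cells, but 0.47 times in SOX2-low WT. TSPAN15 was 0.704 times in CF against 2.17 times in all WT cells, but 0.90 times in SOX2-low WT. The SOX2-low share of WT cells was 14.3% at day 2 and 27.9% at day 9. CF centroacinar cells were 1131 of 4499 cells at day 2 and 1957 of 2489 at day 9. Inside CF classes TSPAN15 was 133 and 163 CPM at day 2 and 9 in ductal cells, 175 and 193 CPM in progenitors and 69.1 and 66.6 CPM in centroacinar cells. RHOV was 31.1 and 26.1, 69.1 and 66.7, and 13.3 and 16.7 CPM in the same classes, and NRN1 218 and 208, 333 and 228, and 135 and 90.2 CPM. With 1 library for each genotype and day these differences were not tested.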

How the results depend on the processing

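Each difference was recomputed under 8 to 11 alternatives per comparison. No gene that was at least 2-fold apart at a day changed direction except ENPP3 in the ductal class alone, where CF minus WT became 1.39, 2.20 and 1.93 at day 5, 7 and 9 and SOX2-low minus SOX2-high WT became 0.31 at day 9. In that class the count of genes lower at all 4 days fell from 2 to 1 in CF against WT and in SOX2-low against SOX2-high WT, and 2 genes were higher in CF than in SOX2-low WT in place of 1. A pseudocount of 5 CPM left 0 genes lower in CF than in SOX2-low WT, and without day 9 there were 2 lower and 2 higher in place of 1 and 1. Splitting cells by a SOX2 UMI after thinning left 0 of 2 genes lower on the SOX2-low side; SOX2-high cells in which no SOX2 UMI was drawn then count as low. At 4-fold, 1.19, 0.664 and 1.97% of genes were apart in CF against WT, CF against SOX2-low WT and SOX2-low against SOX2-high WT, in place of 2.57, 1.52 and 4.66%, and without a limit on low values the last was 3.06%. TMM scaling shifted the median gene by -0.20 to 0.13 on the log2 scale. Of the 21 matches of most like pattern, 3 for each of the 7 genes, 9 were also among the first 3 by Spearman's correlation. NR5A2 is among the 21 for each of NRN1, TSPAN15 and RHOV, and among the 9 for TSPAN15 and RHOV only. Without WT cluster 38, chosen after seeing the data, SOX2-high clusters reaching the SOX2-low range went from 5 to 2 in NRN1, 1 to 0 in CKB, 4 to 0 in TSPAN15 and 7 to 2 in TCIM. Leaving out the 5 mixed clusters was chosen after seeing the data and changed no count of the 7 genes at least 2-fold apart at all 4 days, but put RHOV in CF against WT at day 9 just under 2-fold, at -0.99. No paired analysis was possible because no result comes from a test and the labels give no replicate numbers; differences were taken within each day, and days were not treated as replicates. SOX2 in CF rests on 1 to 3 UMIs a library, and TCIM on 27 to 41.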
